A study of Ursus arctos with 12 samples.

Results

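Mitochondrial protein import and processing was followed here through 35 genes of brown bear skeletal muscle. They were taken by symbol and read number: every gene whose symbol starts with TOMM or TIMM, together with PAM16, GRPEL1, GRPEL2, PMPCA, PMPCB, MIPEP, LONP1, CLPP, CLPX, AFG3L2, SPG7, PHB, PHB2 and CHCHD4, with at least 30 reads summed over 12 libraries. Of 37 genes that matched, TOMM20L had 1 read and PMPCA was listed at 0, which left 35 of the 17290 genes tested. A count of 0 does not show that PMPCA is not expressed, and its reason was not tested. The libraries came from biopsies of the vastus lateralis, a thigh muscle, of 6 free-ranging brown bears (Ursus arctos) labelled as 2 to 3 years old, each sampled in winter during hibernation and in summer during the active period. The bears were caught and anesthetized for sampling, and the labels give no further treatment. The comparison asks which import and processing transcripts differ between the hibernating and the active muscle of the same animals.

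Most mitochondrial proteins are encoded in the nucleus, made in the cytosol and carried across the mitochondrial membranes by dedicated machines. The TOM complex forms the entry gate in the outer membrane, the TIM23 complex with its ATP-driven motor pulls proteins with a presequence into the matrix, the TIM22 complex inserts carrier proteins into the inner membrane, and small TIM chaperones escort hydrophobic proteins between the membranes. Peptidases then remove the presequence, proteases of the AAA and Clp families degrade or mature proteins inside, and prohibitins form ring scaffolds in the inner membrane around which some of these proteases are organised.

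The libraries held 16742406 to 32140160 reads on genes, and the 35 genes together took 0.194% ± 0.00558 (SD, n = 6) of the reads in summer and 0.192% ± 0.0148 (SD, n = 6) in winter. Levels are given as log2 CPM, the log2 of counts scaled to library size by TMM with a prior count of 2, and changes as winter against summer from edgeR's quasi-likelihood test with the bear as a block, Benjamini-Hochberg adjusted over all 17290 genes. FC is the winter/summer fold change. SE is the size of the log2 change divided by the square root of the F statistic of that test. Skeletal muscle fibre markers had the highest summed level of the marker lists in every library. It was 115422 to 193411 CPM in summer and 117136 to 156324 CPM in winter over 10 of 12 listed genes (3 lower, 1 higher, median log2 change −0.20). The other 2 were not among the genes counted. Summed over their lists, fibroblast markers ran from 4393 to 11706 CPM in summer and from 315 to 2075 CPM in winter (7 of 8 genes lower), endothelial markers from 619 to 944 and from 423 to 489 (4 of 7 lower, 1 higher), macrophage markers from 94.8 to 149 and from 40.0 to 78.9 (5 of 7 lower), and adipocyte markers from 297 to 1376 and from 216 to 459 (1 of 5 lower). The 2 red cell markers tested summed to 0.0364 to 1.95 CPM in summer and 0.286 to 2.48 CPM in winter, and neither was called. The part of these shifts in the results on import genes was not tested. In a bulk biopsy, fewer cells of a type and less RNA per cell cannot be told apart.

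The import and processing genes did not move one way. At an adjusted p below 0.05, 6 of 35 (17.1%) rose in winter and 11 (31.4%) fell, while 18 did not pass the test. Over all genes tested, 19.6% were called higher and 21.2% lower, so the share of import genes that rose lay close to that of all genes and the share that fell lay above it. The genes that rose were TOMM20, PHB2, TOMM7, TIMM10, MIPEP and TOMM22. Those that fell were TIMM44, TOMM40L, GRPEL1, TIMM8B, TIMM50, PHB, SPG7, TOMM70, PMPCB, CLPX and TIMM21. Under stricter limits, an adjusted p under 0.01 together with FC over 1.3 or under 0.77, 4 were higher and 6 lower, against backgrounds of 12.2% and 13.4% of all genes. All 6 winter libraries lay above all 6 summer libraries for 3 genes and below them for 5, against 9.12% and 8.21% of all genes. The median log2 change was −0.13 over the 35 genes and −0.01 over all genes, and the median over the 35 genes in a single bear ran from −0.28 to 0.07, below 0 in 3 bears and above 0 in 3. Scaling by library totals in place of TMM gave 4 higher and 12 lower. In that fit the median log2 change over all genes was also lower, at −0.08. The shares of all genes called in that fit are not given here.

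**Figure D1:**
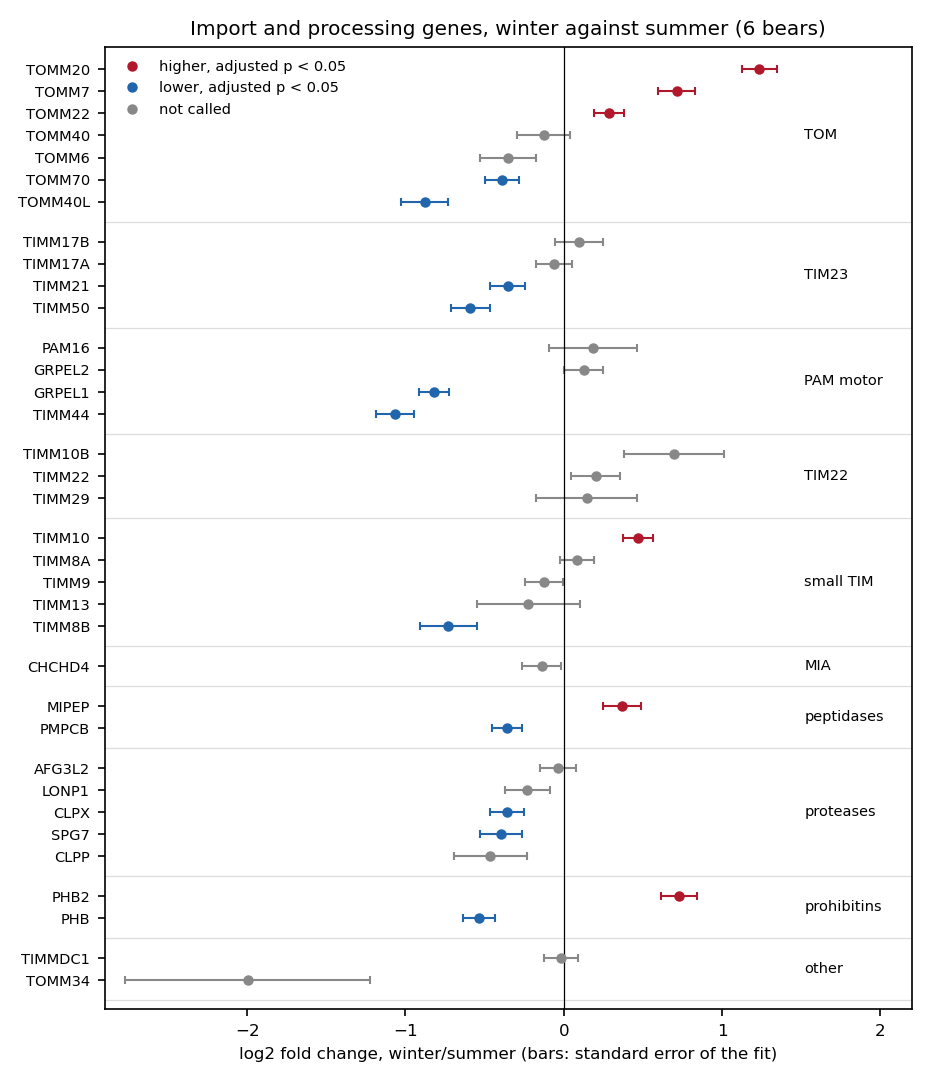
Log2 fold change (winter/summer, x axis) of each of the 35 genes over 6 bears, grouped by role. Bars show the SE derived from the F statistic of the test. Red points (6) were higher and blue points (11) lower at an adjusted p below 0.05, and grey points were not called. TOMM20 at 1.24 and TIMM44 at −1.07 are the called genes farthest from 0.

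Among the 7 genes of the outer membrane TOM complex tested, 3 rose, 2 fell and 2 did not pass the test; TOMM5 was not analysed here. TOMM20, a receptor that recognises presequences at the mitochondrial surface, ranged from 6.99 to 7.36 log2 CPM in summer (median 7.31) and from 8.32 to 8.68 in winter (median 8.50). Its seasons were separated by about a whole log2 unit, and the rise was seen in all 6 bears. The log2 change was 1.24 (SE 0.11, FC = 2.36, adjusted p = 3.18e-05), and it ran from 1.01 to 1.49 in single bears. TOMM20 alone held 7.70 to 8.43% of the reads of the 35 genes in summer libraries and 15.3 to 19.98% in winter libraries. The other 34 genes combined held 0.178% ± 0.00471 (SD, n = 6) of all reads in summer and 0.157% ± 0.0143 (SD, n = 6) in winter, lower in 6 of 6 bears, a split made after the values had been seen. Removing the gene with the largest rise lowers the winter share of the rest by construction, so this is no separate result. These are shares of raw reads without TMM, and with library totals the median log2 change over all genes was −0.08.

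TOMM7, a small subunit that modulates the assembly of the TOM complex, spanned 6.19 to 7.34 log2 CPM in summer (median 6.89) and 7.34 to 7.80 in winter (median 7.59). The highest summer library came next to the lowest winter library without crossing it, and TOMM7 rose by 0.71 (SE 0.12, FC = 1.64, adjusted p = 0.000873). TOMM22, the central receptor that holds the complex together, lay between 5.23 and 5.74 log2 CPM in summer (median 5.50), and its winter libraries between 5.64 and 5.99 (median 5.82). Its seasons overlapped, although every bear was higher in winter. The change of 0.28 (SE 0.10, FC = 1.22, adjusted p = 0.0356) lost the call with library totals (adjusted p = 0.162) and with no filter on low counts (0.0821), and also without bear 1305, 1317, 1511 or 1512 (adjusted p from 0.0642 to 0.11).

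TOMM70, the receptor for carrier proteins and other precursors without a presequence, went the other way. It ran from 5.73 to 6.29 log2 CPM in summer (median 6.02) and from 5.52 to 5.87 in winter (median 5.59), and was lower in winter in all 6 bears with an overlap between the seasons. The log2 change was −0.39 (SE 0.11, FC = 0.763, adjusted p = 0.0142), and without bear 1512 it just missed the threshold (adjusted p = 0.0514). TOMM40L, a less studied relative of the channel protein TOMM40, lay between 4.10 and 4.78 log2 CPM in summer (median 4.41), and its winter libraries between 3.27 and 3.95 (median 3.53). No winter library reached the lowest summer library, and the log2 change was −0.88 (SE 0.15, FC = 0.544, adjusted p = 0.000954). TOMM40 itself, which forms the channel, ranged from 3.93 to 4.60 in summer (median 4.02) and from 3.63 to 4.30 in winter (median 4.07), and its log2 change of −0.13 (SE 0.17, adjusted p = 0.565) did not pass the test. TOMM6, a small stabilising subunit, had a log2 change of −0.35 (SE 0.18, adjusted p = 0.134) and passed the threshold with library totals (−0.43, adjusted p = 0.0486). It was at −0.21 without bear 1509 (adjusted p = 0.332) and at −0.49 without bear 1317 (adjusted p = 0.0517).

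**Figure D2:**
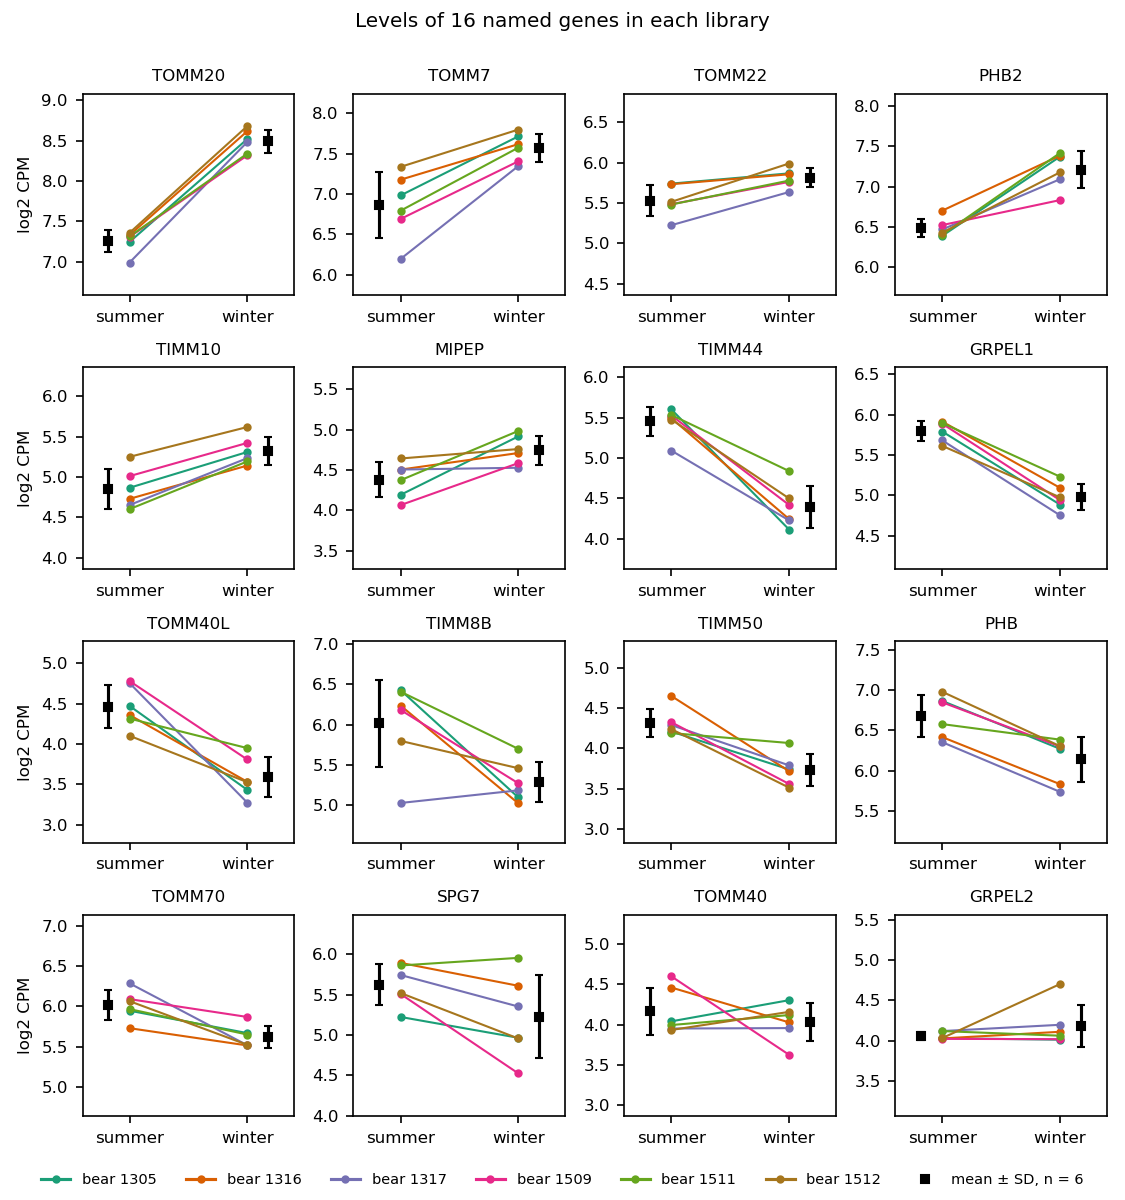
Level (log2 CPM, y axis) of 16 genes in summer and winter, with a line for each of the 6 bears and black squares with bars for the mean ± SD. Every panel spans the same number of log2 units. The lines of TOMM20 rise together from about 7.26 to 8.49, those of GRPEL1 fall together from 5.80 to 4.98, and those of TOMM40 cross.

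In the TIM23 complex, the presequence gate of the inner membrane, 2 of the 4 genes tested fell, and the channel subunit TIMM23 was not analysed here. TIMM50, the receptor that hands presequences from TOM to TIM23, ranged from 4.19 to 4.65 log2 CPM in summer (median 4.26) and from 3.51 to 4.07 in winter (median 3.73). The seasons did not overlap, and TIMM50 had a log2 change of −0.59 (SE 0.12, FC = 0.665, adjusted p = 0.00376). TIMM21, which links TIM23 to the TOM complex, changed by −0.35 (SE 0.11, FC = 0.782, adjusted p = 0.0234) and was lower in 6 of 6 bears. It did not pass without bear 1305, 1316 or 1512 (adjusted p from 0.0674 to 0.0747). The alternative channel-forming subunits TIMM17A and TIMM17B had log2 changes of −0.06 (SE 0.11, adjusted p = 0.686) and 0.10 (SE 0.15, adjusted p = 0.632).

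The import motor held the strongest fall of the set among called genes. TIMM44, the anchor that tethers the motor chaperone to TIM23, lay between 5.09 and 5.60 log2 CPM in summer (median 5.51), and its winter libraries between 4.11 and 4.84 (median 4.33). All bears were lower in winter by 0.69 to 1.49 log2 units, with no overlap of the seasons. The log2 change was −1.07 (SE 0.12, FC = 0.477, adjusted p = 0.00011). GRPEL1, the nucleotide exchange factor that resets the motor chaperone, ran from 5.61 to 5.92 log2 CPM in summer (median 5.84) and from 4.76 to 5.23 in winter (median 4.96). Its decline was of similar size in every bear, between −0.95 and −0.64, and the fitted log2 change was −0.82 (SE 0.10, FC = 0.567, adjusted p = 0.000132). GRPEL2, its paralog, stayed between 4.02 and 4.12 log2 CPM in summer (median 4.03), with winter libraries from 4.01 to 4.70 (median 4.09). It was higher in 3 bears and lower in 3, with a log2 change of 0.13 (SE 0.12, adjusted p = 0.43) that was 0.02 without bear 1512. PAM16, a co-chaperone-like regulator of the motor, had a log2 change of 0.18 (SE 0.28, adjusted p = 0.62), and single bears ran from −0.99 to 1.04.

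None of the 3 genes of the TIM22 complex, the gate for carrier proteins, passed the test. TIMM22, its channel subunit, had a log2 change of 0.20 (SE 0.15, adjusted p = 0.317) and TIMM29, a subunit that connects it to the outer membrane, of 0.14 (SE 0.32, adjusted p = 0.743), with 10 to 71 reads per library. TIMM10B, the small TIM bound to this complex, had the highest value of the 3, at 0.70 (SE 0.31, adjusted p = 0.0994) with 18 to 107 reads per library, and was higher in 5 of 6 bears. Without bear 1509, the only bear in which it was lower, its log2 change was 1.00 (adjusted p = 0.00843). Without bear 1317, which had its largest rise at 2.11, the log2 change was 0.44 (adjusted p = 0.245).

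The small TIM chaperones divided. TIMM10, the partner of TIMM9 in the main chaperone of the intermembrane space, ranged from 4.60 to 5.25 log2 CPM in summer (median 4.80) and from 5.14 to 5.62 in winter (median 5.27). The ranges overlapped slightly, yet every bear rose by 0.37 to 0.59, and the log2 change was 0.47 (SE 0.09, FC = 1.38, adjusted p = 0.0026). TIMM9 had a log2 change of −0.12 (SE 0.12, adjusted p = 0.437). TIMM8B, a member of the TIMM8 and TIMM13 type of chaperone, lay between 5.03 and 6.43 log2 CPM in summer (median 6.21), and its winter libraries between 5.02 and 5.70 (median 5.23). It was lower in 5 of 6 bears and slightly higher in bear 1317, and had a log2 change of −0.73 (SE 0.18, FC = 0.604, adjusted p = 0.00864). TIMM8A, the gene mutated in deafness-dystonia syndrome, had a log2 change of 0.08 (SE 0.11, adjusted p = 0.567), and TIMM13 of −0.22 (SE 0.32, adjusted p = 0.609) with single bears from −1.83 to 1.26. CHCHD4, the oxidoreductase that folds small proteins of the intermembrane space by introducing disulfide bonds, had a log2 change of −0.14 (SE 0.12, adjusted p = 0.394).

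Of the presequence peptidases, PMPCB is the catalytic subunit of the processing peptidase that cuts off the presequence, and MIPEP trims some of the products further. MIPEP ran from 4.06 to 4.64 log2 CPM in summer (median 4.44) and from 4.53 to 4.98 in winter (median 4.73). The seasons overlapped and the rise in single bears was 0.02 to 0.72. The log2 change of 0.37 (SE 0.12, FC = 1.29, adjusted p = 0.033) lost the call with library totals (adjusted p = 0.137), with no filter (0.0501), and without bear 1305, 1509 or 1511 (0.0555 to 0.128). PMPCB ran from 7.29 to 7.59 in summer (median 7.43) and from 6.88 to 7.23 in winter (median 7.13), without overlap, and had a log2 change of −0.36 (SE 0.10, FC = 0.78, adjusted p = 0.0132).

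Among the 5 AAA and Clp protease genes, SPG7 and CLPX fell and the other 3 did not pass. SPG7, the paraplegin subunit of an inner membrane protease, spanned 5.22 to 5.90 log2 CPM in summer (median 5.63) and 4.53 to 5.96 in winter (median 5.16). Bear 1511 was slightly higher in winter and held the highest level of either season. The log2 change of −0.40 (SE 0.13, FC = 0.76, adjusted p = 0.0358) did not pass without the bear as a block (adjusted p = 0.208), nor without any bear other than 1511 (0.0548 to 0.103). AFG3L2, the partner of SPG7, had a log2 change of −0.03 (SE 0.11, adjusted p = 0.833). CLPX, the unfolding subunit of the matrix ClpXP protease, was lower in 6 of 6 bears with a log2 change of −0.36 (SE 0.11, FC = 0.78, adjusted p = 0.0232), a call lost without bear 1305, 1317, 1511 or 1512 (0.0515 to 0.0672). Its peptidase subunit CLPP had a log2 change of −0.46 (SE 0.23, adjusted p = 0.131). This was −0.26 without bear 1509 (adjusted p = 0.311) and −0.62 without bear 1317 (adjusted p = 0.0664). LONP1, the main protease for damaged matrix proteins, had a log2 change of −0.23 (SE 0.14, adjusted p = 0.215) and was lower in 5 of 6 bears. Bear 1509 lay far below the others, which ran from −0.21 to 0.10, and without bear 1509 the log2 change was −0.07.

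Both prohibitin genes passed the test, in opposite directions. PHB ranged from 6.35 to 6.98 log2 CPM in summer (median 6.71) and from 5.74 to 6.38 in winter (median 6.28), and PHB2 from 6.39 to 6.70 in summer (median 6.45) and from 6.83 to 7.42 in winter (median 7.28). PHB was lower in all 6 bears with a narrow overlap of the seasons, and PHB2 was higher in all 6 with none. The log2 changes were −0.53 for PHB (SE 0.10, FC = 0.69, adjusted p = 0.00191) and 0.73 for PHB2 (SE 0.11, FC = 1.65, adjusted p = 0.000723). The remaining genes matched by symbol but act elsewhere: TIMMDC1, an assembly factor of respiratory complex I, had a log2 change of −0.02 (SE 0.11, adjusted p = 0.918), and TOMM34, a mainly cytosolic co-chaperone, had 0 to 7 reads per library and a log2 change of −2.0 (SE 0.77, adjusted p = 0.0597).

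Paralogs and partner subunits were compared within each bear by subtracting the winter minus summer difference of the second gene from that of the first. Over 7 such pairs, an exact two-sided sign-flip permutation test over 6 bears cannot give a p below 0.031, and none of the pairs passed after adjustment over the 7. With this floor, no pair could pass after adjustment unless most of the pairs reached it. Not passing therefore does not decide whether a single pair differed. PHB minus PHB2 was −1.26 ± 0.24 log2 units (SD, n = 6, exact p = 0.031, adjusted p = 0.0729) and lay below 0 in 6 of 6 bears. GRPEL1 minus GRPEL2 was −0.94 ± 0.22 (SD, n = 6) with the same exact p values, again below 0 in every bear. TOMM40 minus TOMM40L was 0.75 ± 0.57 (SD, n = 6), also at the smallest exact p, but bear 1509 stood at 0.00, and with a prior count of 0.5 the exact p was 0.0625.

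The other 4 pairs were less even between bears. TIMM8A minus TIMM8B was 0.81 ± 0.63 (SD, n = 6, exact p = 0.0625, adjusted p = 0.109) and lay above 0 in 5 of 6 bears. AFG3L2 minus SPG7 was 0.36 ± 0.46 (SD, n = 6, exact p = 0.125, adjusted p = 0.175). The mean differences of TIMM17A minus TIMM17B (−0.16 ± 0.62, SD, n = 6, exact p = 0.5, adjusted p = 0.583) and CLPP minus CLPX (−0.11 ± 0.91, SD, n = 6, exact and adjusted p = 0.781) were smaller than their spread between bears. Reads shared between a gene and a near-identical copy could move counts between them, and this was not tested.

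**Figure D3:**
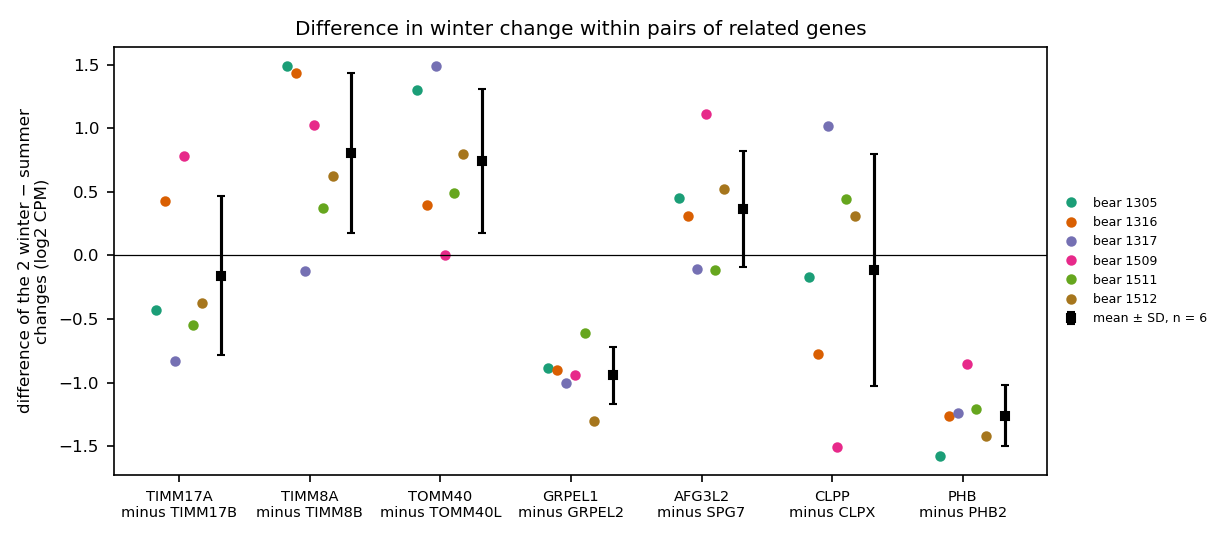
For 7 pairs of related genes, the winter minus summer change of the first gene minus that of the second (log2 CPM, y axis), with a coloured point for each bear and a black square with bars for the mean ± SD, n = 6. All points of PHB minus PHB2 (mean −1.26) and GRPEL1 minus GRPEL2 (mean −0.94) lie below 0, and those of TIMM17A minus TIMM17B and CLPP minus CLPX lie on both sides of it.

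Libraries of a season did not deviate evenly over these genes. The summer library of bear 1317 was the lowest of its season for 18 of the 35 genes, against 20.4% of all genes, and the winter library of bear 1509 for 13, against 24.7%. The winter library of bear 1317 was the lowest for another 13 (12.3% of all genes), and that of bear 1511 the highest for 17 (20.6%). CLPP, PAM16, TIMM10B, TIMM13, TIMM17B, TIMM22, TIMM29, TOMM20 and TOMM6 were lowest in both the summer library of 1317 and the winter library of 1509, a pattern of 6.89% of all genes. The winter library of 1509 also lay apart on the second principal component of all genes, at −98.6. Without both bears, 6 genes were called higher and 10 lower, with a median of −0.08. TIMM10B was then called (log2 change 0.75, adjusted p = 0.014), and SPG7 (−0.24, adjusted p = 0.178) and TOMM22 (0.27, adjusted p = 0.0972) were not.

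**Figure D4:**
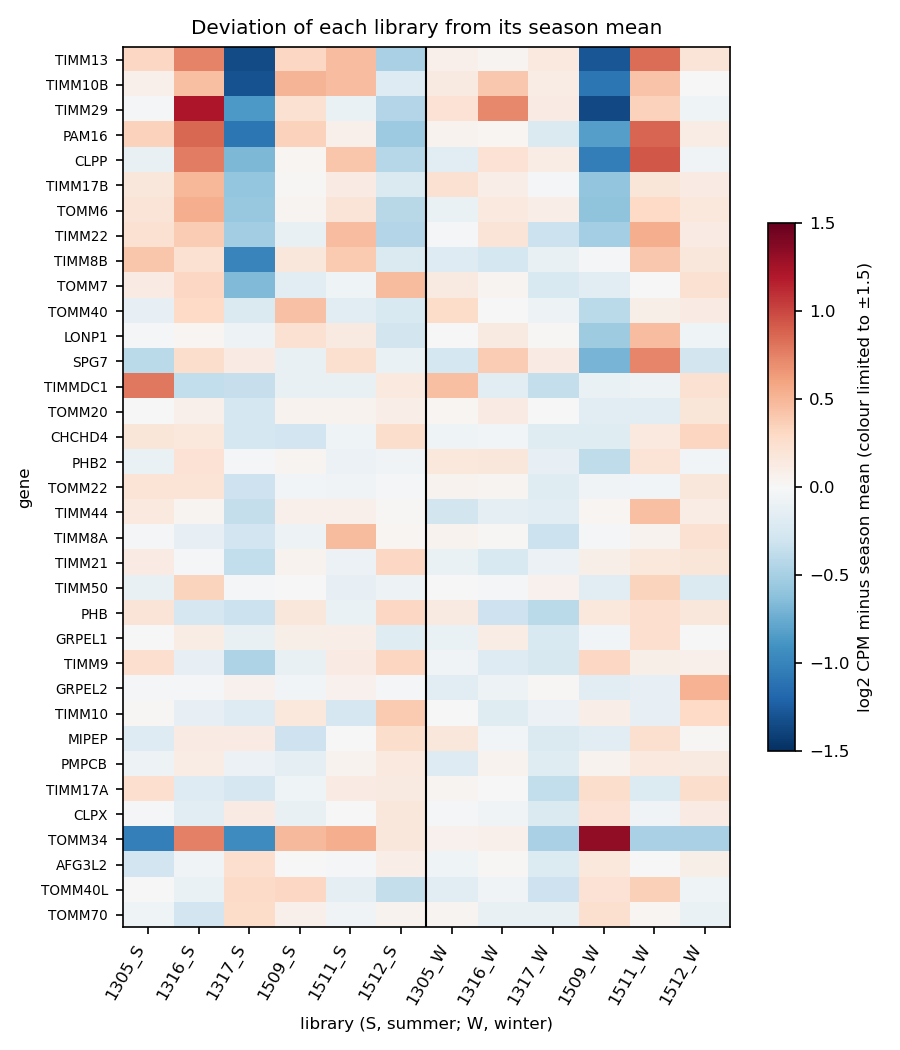
Deviation of each library (columns, S for summer and W for winter) from the mean of its season (log2 CPM, colour limited to ±1.5) for the 35 genes (vertical axis). Genes are ordered by the summed deviation in 1317_S and 1509_W, lowest at the top, so the upper genes are blue in both by this order. The column of 1317_S is blue for most genes.

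Genes that work next to this machinery, from lists of 32 genes outside the rule, had 4 called higher (12.5%), 15 lower (46.9%) and a median log2 change of −0.30, beside 19.6% higher and 21.2% lower over all genes. Without bear 1305, 2 were called higher. The MICOS complex, which shapes the cristae and contacts the import gates, had 6 genes tested and all of them passed. The scaffold subunit IMMT (−0.51, SE 0.13, adjusted p = 0.0115) and CHCHD3 (−0.73), APOO (−0.84), APOOL (−0.91) and MINOS1 (−0.93) fell, whereas CHCHD6 rose by 1.58 (SE 0.28, adjusted p = 0.00132). CHCHD6 was a low gene with 16 to 122 reads per library, against 1962 to 5369 for IMMT. Among 4 genes of the outer membrane sorting machinery and the metaxins, SAMM50, which inserts barrel proteins, fell (−0.67, SE 0.12, adjusted p = 0.00124), and MTX2 rose (0.49, SE 0.13, adjusted p = 0.0116).

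The chaperones that receive imported proteins belong to the same account. HSPA9, the motor chaperone that TIMM44 anchors and GRPEL1 resets, ran from 8.48 to 8.81 log2 CPM in summer (median 8.57) and from 7.89 to 8.32 in winter (median 8.24). Its seasons did not overlap, and it fell by 0.43 on the log2 scale (SE 0.12, adjusted p = 0.0167). The chaperonin HSPD1 (−0.68, SE 0.12, adjusted p = 0.00123) fell, while its co-chaperonin HSPE1 had a log2 change of −0.12 (SE 0.10, adjusted p = 0.357). The motor J-protein paralog DNAJC15 (−0.58) and the matrix chaperone TRAP1 (−0.71) fell too, DNAJC19 did not pass (−0.26, adjusted p = 0.102), and the inner membrane insertase OXA1L rose (0.48, SE 0.12, adjusted p = 0.00914). Of 12 further mitochondrial peptidases and their partners, 5 fell, namely the stress-activated protease OMA1 (−1.05, SE 0.16, adjusted p = 0.000672), the inner membrane peptidase IMMP1L (−0.74), LACTB (−0.68), the prohibitin relative STOML2 (−0.66) and NLN (−0.61), and the rhomboid protease PARL rose (0.40, SE 0.11, adjusted p = 0.0132). MTX2, HSPA9 and PARL passed the threshold by a margin that some alternatives removed, with adjusted p values of up to 0.0521, 0.0505 and 0.065. Among genes not called, DNAJC19, IMMP2L, ROMO1 and MTX3 each passed in at least 1 alternative. Their lowest adjusted p values were 0.0218, 0.0278, 0.0287 and 0.043.

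Transcripts for proteins that this machinery imports were read from the same fit, and no protein level was measured in it. Of 60 genes taken by symbol for respiratory complexes I and II and ATP synthase, 37 fell (61.7%, beside 21.2% of all genes) and 23 did not pass, with a median log2 change of −0.51. The symbol match also took in NDUFA4 and NDUFA4L2. No UQCR, CYC1 or COX gene was in this list, so it does not cover complexes III and IV. Of 77 genes for mitochondrial ribosomal proteins, 35 fell (45.5%) and 3 rose (3.90%, beside 19.6% of all genes), with a median of −0.36. The medians of both lists were below 0 in 6 of 6 bears, whereas the median of the 35 import and processing genes was below 0 in 3. The differences between these lists were not tested.

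**Figure D5:**
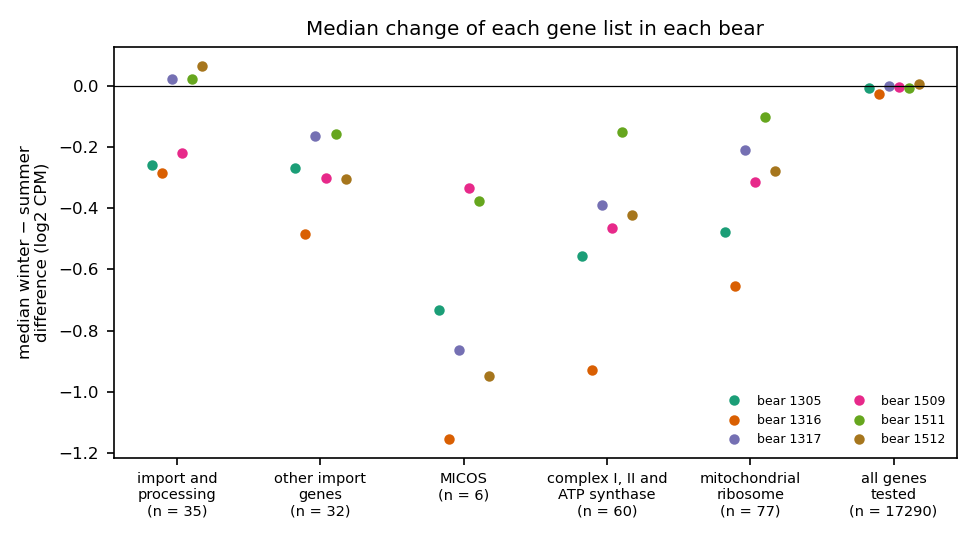
Median winter minus summer difference (log2 CPM, y axis) over the genes of each list, with a point for each bear. The 35 import and processing genes lie between −0.28 and 0.07, and the points of the other mitochondrial lists are all below 0. All genes tested stay near 0.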

How the data were processed

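The authors extracted RNA from the biopsies, made stranded mRNA libraries, mapped the single-end reads with TopHat2 2.1.1 and Bowtie2 2.2.9 onto ASM358476v1, and used featureCounts 1.6.2 for strand-specific counts per gene (versions per the submitters' processing notes). The authors deposited raw counts, whole numbers without normalization. Genes whose sum over all 12 libraries was under 30 reads were dropped and held 0.019% of reads. Counts were fitted with edgeR 4.0.16 in R 4.3.3 (TMM, glmQLFit and glmQLFTest, terms for bear and season), and fits were tested on simulated data. The alternatives were no replicate block, DESeq2 1.42.0, limma 3.58.1 voom, another normalization, library totals, other filters, each bear left out, other thresholds and, chosen after seeing the data, leaving out both bears 1317 and 1509.

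The methods state that the same bears were sampled in both seasons. Deviations from season means had correlations of 0.0903 to 0.344 within a bear and a median of −0.0634 (highest 0.142) between bears, which is the check of the pairing. The check did not single out the pair of bear 1509, whose own correlation was 0.0903. Its summer library correlated more with the winter library of bear 1305 (0.122). Its winter library correlated more with the summer library of bear 1317 (0.0944). No library was a copy of another of its season (lowest chi-square per gene 39.1). The depth of each library limits low genes most, such as TOMM34.

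Genes given in full were, among called members, up to 8 with the largest rise and 8 with the largest fall, the genes of pairs at the smallest exact p, and genes whose call changed with the bear block. PMPCB and, outside the members, HSPA9 were given the same way after their values had been seen. The members and lists were chosen with earlier results of these data known. Lane assignment is not given in the sources used here, so a lane effect was not tested.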

Additional observations from a re-analysis of the deposited data

Results flagged for a closer look

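In 8 of 70 groups (35 genes in 2 seasons), 1 library stood apart from the other 5 of its season by Dixon's test at the 95% level, which chance alone gives in about 1 of 20 groups. The winter library of bear 1509 was the one in 4 of these. It was the lowest for TIMM10B at 0.71 log2 CPM (the others at 1.78 to 2.22), for TIMM13 at 4.13 (5.46 to 6.25) and for TIMM17B at 4.58 (5.14 to 5.40), and the highest for TOMM34 at −1.70 (−3.53 to −2.96). The summer library of bear 1317 was the lowest for TIMM44 at 5.09 (5.48 to 5.60) and for TOMM20 at 6.99 (7.24 to 7.36). GRPEL2 was highest in the winter library of bear 1512 at 4.70 (4.01 to 4.20), and TIMM50 in the summer library of bear 1316 at 4.65 (4.19 to 4.32).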

How the results depend on the processing

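Over the alternatives, 4 to 6 genes were called higher and 6 to 12 lower. For the alternative fits, the shares of all genes called are not given here, so these counts have no background beside them. With each bear left out in turn, the counts were 4 to 6 higher and 7 to 10 lower (7 without bear 1512), 7 to 10 past the limits on p and fold together, and a median log2 change of −0.15 to −0.06. Under the stricter limits (adjusted p under 0.01, FC over 1.3 or under 0.77), 6 were lower. Without the replicate block, 6 genes were higher and 10 lower with a median of −0.14, and SPG7 was the only gene whose call changed (adjusted p = 0.208). Of the 17 called genes, 11 kept call and direction in all 15 alternative fits, and CLPX, MIPEP, SPG7, TIMM21, TOMM22 and TOMM70 lost the call in some. Changes that turned sign were of genes never called. With each bear left out in turn, the log2 change ran from −0.0929 to 0.0588 for AFG3L2 (above 0 without bear 1317), from −0.511 to 0.0933 for TIMM13 and from −0.22 to 0.0484 for TOMM40 (both above 0 without bear 1509), from −0.12 to 0.0041 for TIMM17A (above 0 without bear 1511), from −0.0098 to 0.228 for TIMM17B and from −0.0424 to 0.427 for TIMM29 (both below 0 without bear 1317), and from −0.0555 to 0.0416 for TIMMDC1 (above 0 without bear 1305). The mean of CLPP minus CLPX ran from −0.339 to 0.166 and was above 0 without bear 1316 or 1509. Without both bears 1317 and 1509, AFG3L2 was at 0.0499 and TOMM40 at 0.0552. The cause was not tested. TOMM34 gave no value with filterByExpr, without bear 1316, 1509, 1511 or 1512, or without both bears 1317 and 1509, where its reads were under the minimum. Depth limits TOMM34, TIMM10B and TIMM29 most.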
